A study of Mus musculus with 7 samples.

Results

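Adrenal cortex genes of corticosteroid synthesis and of the adrenocorticotropin (ACTH) receptor complex were examined in sorted mouse glioblastoma cells. The 5 genes Mc2r, Mrap, Cyp21a1, Cyp11b1 and Cyp11b2 were chosen by name from the 23282 entries of the deposited count table, with their values in these libraries already known. Their levels are therefore a description, and no test of them between the groups is given.

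The series compared tumour cells sorted as tdTomato-positive from adult C57BL/6 mice with glioblastoma. There were 3 wild-type libraries (WT) and 4 libraries of the genotype labelled Fyn knockout (Fyn-KO), and per the series' design text, sorting and library making were done separately for each. All 7 share the strain, the tumour type and the sorted reporter. The labels and design text used here do not name the promoter of tdTomato, the way the tumours were started or the altered part of Fyn. Libraries were made with a 3' tag method (QuantSeq), in which a transcript gives tags from its 3' end only. Levels are counts per 1000000 counts of the library (CPM) and were not divided by transcript length, since tags do not accumulate along a transcript.

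ACTH from the pituitary acts on the adrenal cortex through Mc2r, a receptor coupled to cyclic AMP. Mrap is the accessory protein that brings Mc2r to the cell surface and lets it signal. Steroid synthesis begins with Star, Cyp11a1 and Hsd3b1, which the adrenal cortex shares with ovary and testis, and the following steps set the organ apart. Cyp21a1 (21-hydroxylase) makes deoxycorticosterone, Cyp11b1 (11-beta-hydroxylase) turns it into corticosterone in the inner cortex, and Cyp11b2 (aldosterone synthase) makes aldosterone in the outer zone, the glomerulosa.

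Facts of the libraries bear on each level below. Total counts were 11911864 to 16371244 in WT and 8976745 to 10396507 in Fyn-KO, while 7723 to 9924 entries had a count in WT and 13535 to 14548 in Fyn-KO. Fyn, the targeted gene, stood at 720 to 1604 CPM in WT and 74.5 to 190 CPM in Fyn-KO, so the groups did not overlap. The labels call all samples tumour cells, but the 10 glioma and oligodendrocyte lineage markers summed to 15241 to 31404 CPM in WT and 248 to 1408 CPM in Fyn-KO, with none of the 10 at 0 in either group. In bulk libraries such as these, fewer cells of a type and less RNA per cell cannot be told apart. The precursor of ribosomal RNA, Rn45s, took 1.41 to 2.92% of the counts in WT and 10.5 to 16.6% in Fyn-KO.

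Of the 5 adrenal cortex genes, 2 were present in the Fyn-KO libraries, 1 was partly detected and 2 had no count, and none had a count in WT. A gene is called present here with 10 or more counts in each library of a group, absent with 3 or fewer in each, and partly detected otherwise. Across the table, 48.6% of entries were present and 32.7% absent in Fyn-KO, and 14.9% were present and 52.9% absent in WT. Entries present in Fyn-KO with no WT count made up 4.81%, entries absent in both groups 31.5%, and entries with no count in any library 28.7%. Because the members were chosen with this contrast known, nothing is read from their share. A library without a count allows up to 3 counts, which is 0.183 to 0.252 CPM in WT and 0.289 to 0.334 CPM in Fyn-KO. These limits, and the folds built on them below, cover counting error only. WT libraries differed from each other far beyond it, as with 2405, 16 and 7 counts of Fdx1 in WT replicates 1 to 3.

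**Figure D1:**
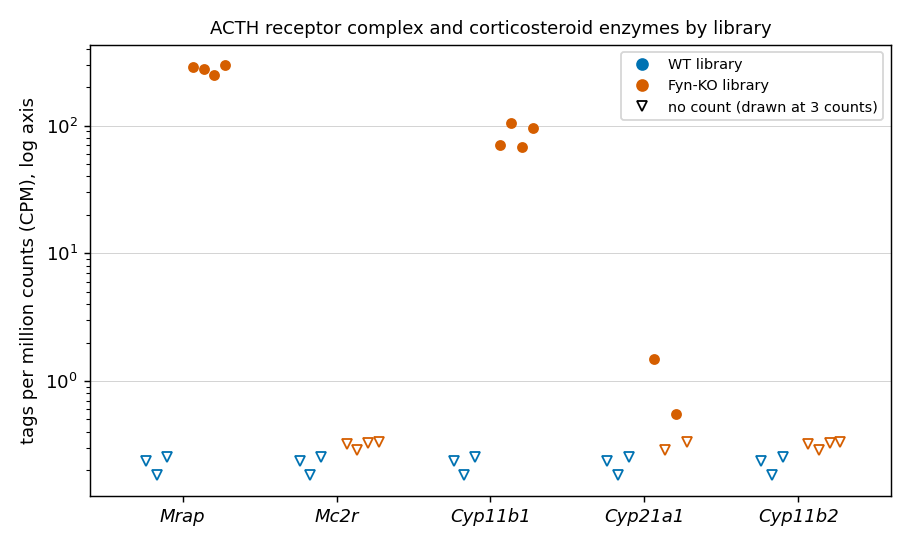
Level of the 5 genes in each library, in CPM on a log axis; filled points are libraries with a count and open triangles are libraries without one, drawn at the level of 3 counts. Mrap lies between 248 and 297 CPM and Cyp11b1 between 67.3 and 104 CPM in Fyn-KO, Cyp21a1 has a count in 2 Fyn-KO libraries, and Mc2r and Cyp11b2 have none.

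The receptor complex was split, with the accessory gene at a high level and the receptor gene without a tag. Mrap (ENSMUSG00000039956.9, GRCm38 chromosome 16, 90738207 to 90749785, plus strand) had 2714, 2858, 2269 and 2663 counts in Fyn-KO replicates 1 to 4, or 289, 275, 248 and 297 CPM. The mean was 277 ± 21.3 CPM (SD, n = 4), against no count in the 3 WT libraries, at least 1100-fold higher when WT is set at its highest limit of 3 counts per library. Mrap ranked 495 of 23282 entries by mean level in Fyn-KO. Its libraries lay close together. The coefficient of variation was 7.68%, where the 1094 genes within a factor of 2 of its level had a median of 16.7%, and 12.6% of them varied less.

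Mc2r (ENSMUSG00000045569.7, chromosome 18, 68406907 to 68429320, minus strand) had 0 counts in each of the 7 libraries. Over the 4 Fyn-KO libraries together, with 37894093 counts, this allows a level of up to 0.0792 CPM. Set beside 10504 Mrap tags in the same libraries, up to 0.0286% of the tags of the pair could be Mc2r tags at this depth. So Mrap was measured without its receptor being detected, at a limit far under the level of Mrap in every Fyn-KO library.

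The other genes of the melanocortin system were also at or near 0, and Mc1r was the one other receptor of the family with a count. Mc3r, Mc4r and Mc5r, the receptors of brain and exocrine glands, had no count in any library, and neither did Agrp, which blocks the brain receptors. Mc1r, the receptor of pigment cells, had 13 counts, all of them in Fyn-KO replicate 4 (1.45 CPM). Mrap2, the paralog of Mrap, had 1 count in the 7 libraries. Pomc, which encodes the precursor of ACTH, stood at 0, 5.19, 1.86 and 2.67 CPM in Fyn-KO and had 1 count in WT. Of the 8 genes of this list 7 were in the table, 1 (Pomc) was tested and 0 passed the edgeR quasi-likelihood test (log2 fold change 5.87 ± 2.08 (SE), Benjamini-Hochberg adjusted p = 0.0765). At an unadjusted p under 0.05, 1 was higher, DESeq2 called 1 and limma-voom called 0. Pomc was called by edgeR without Fyn-KO replicate 1, the Fyn-KO library in which it had no count. It entered the test through Fyn-KO alone, so these calls are a description.

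The corticosteroid enzymes were split in the same way, with the last step of corticosterone synthesis present and the step before it nearly without tags. Cyp11b1 (ENSMUSG00000075604.5, chromosome 15, 74834125 to 74841643, minus strand) had 665, 1086, 615 and 857 counts in Fyn-KO replicates 1 to 4, or 70.9, 104, 67.3 and 95.5 CPM. Its mean was 84.5 ± 18.3 CPM (SD, n = 4), against no count in WT, at least 335-fold higher by the same limit. All 4 Fyn-KO libraries held Cyp11b1, and they fell into a lower pair (replicates 1 and 3) and a higher pair (replicates 2 and 4). The coefficient of variation of 21.6% was near the median of 22.2% among 3521 genes within a factor of 2 of its level.

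Cyp21a1 (ENSMUSG00000024365.9, chromosome 17, 34801348 to 34804561, minus strand) had 14, 0, 5 and 0 counts in the Fyn-KO libraries, or 1.49, 0, 0.547 and 0 CPM, and none in WT. The 2 libraries with a count were those with the lower Cyp11b1 levels. Of the 3242 tags of Cyp21a1 and Cyp11b1 together in Fyn-KO, 19 or 0.586% were Cyp21a1 tags (95% exact Clopper-Pearson interval 0.353 to 0.914%, counting error only). The mean of 0.51 ± 0.704 CPM (SD, n = 4) is smaller than its spread between libraries, and it is 0.182 CPM without Fyn-KO replicate 1.

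Cyp11b2 (ENSMUSG00000022589.7, chromosome 15, 74851010 to 74856318, minus strand) had 0 counts in each of the 7 libraries. It lies 9367 bases from Cyp11b1 and is its closest relative. Beside 3223 Cyp11b1 tags in Fyn-KO, up to 0.0931% of the tags of the pair could be Cyp11b2 tags. The signal of this pair was thus Cyp11b1 alone at this depth.

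By level in Fyn-KO the order was Mrap, Cyp11b1, Cyp21a1, and then Mc2r and Cyp11b2 at 0. The ranges of Mrap (248 to 297 CPM), Cyp11b1 (67.3 to 104) and Cyp21a1 (0 to 1.49) did not overlap. Cyp21a1 overlapped with the 2 genes at 0, since 2 of its 4 libraries had no count. Mrap gave 4.08, 2.63, 3.69 and 3.11 tags per Cyp11b1 tag in Fyn-KO replicates 1 to 4 (3.38 ± 0.638, SD, n = 4), so it was the more abundant tag in each library.

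How far 3' tags can tell these genes from others was checked on the annotated transcripts (GENCODE M21, GRCm38). The last 500 bases of each transcript were cut into windows of 50 bases, a length chosen here because the labels do not name the read length. None of the 1217 Mrap windows and none of the 451 Mc2r windows occurred in a transcript of another gene. Of the 451 Cyp11b1 windows 26 occurred elsewhere, spread over 123 other genes, and 0 occurred in Cyp11b2. Of the 451 Cyp11b2 windows, 86 (19.1%) also occurred in Cyp11b1, upstream of the last 500 bases of that gene. Cyp21a1 shared 224 of 1286 windows (17.4%) with other genes, 168 of them with its pseudogene Cyp21a2-ps, which is not an entry of the table. The 19 Cyp21a1 tags are therefore uncertain as to their gene.

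The 3' end of Cyp11b1 is annotated in different places, and a gene on the other strand crosses it. RefSeq ends the gene 767 bases before GENCODE does. With the RefSeq end, 0 of 451 windows occurred in another gene. Gml2, a gene of the plus strand, shares 285 exon bases with Cyp11b1 in GENCODE and spans all 6752 bases of it in RefSeq. The labels do not say whether tags were counted by strand, and without strand the tags of these genes cannot be told apart. Gml2 had 0 counts in each of the 7 libraries, and so had its neighbour Gml.

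In pathway order, the 3 shared first steps were far above the corticosteroid steps in Fyn-KO. Cyp11a1, which cuts the side chain of cholesterol, stood at 11984 ± 798 CPM, Hsd3b1 at 6506 ± 1602 CPM and Star, the cholesterol carrier of mitochondria, at 4601 ± 439 CPM (SD, n = 4). Cyp11b1 gave 6.16, 8.94, 5.11 and 8.26 tags per 1000 tags of Cyp11a1 in Fyn-KO replicates 1 to 4. Mrap gave 59.6, 55.9, 62.7 and 63.5 tags per 1000 tags of Star, a ratio with a coefficient of variation of 5.7% across the 4 libraries. The same coefficient for Cyp11b1 per Star was 16.9%. Per Cyp11a1 it was 13.3% for Mrap and 25.1% for Cyp11b1. Per Hsd3b1 the order was reversed, with 24% for Mrap and 20.2% for Cyp11b1. Which of the 2 genes varied less thus depended on the reference gene. WT replicate 3 held 104 CPM of Hsd3b1 and 37.4 CPM of Star (446 counts), and no tag of any of the 5 adrenal cortex genes. Mc2r and Cyp11b2 had no tag in Fyn-KO either. In Fyn-KO, Cyp11b1 gave 18.3 ± 3.09 and Mrap 60.4 ± 3.45 tags per 1000 tags of Star (SD, n = 4). The part of depth in the absence of Cyp11b1 and Mrap from WT replicate 3 was not tested.

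**Figure D2:**
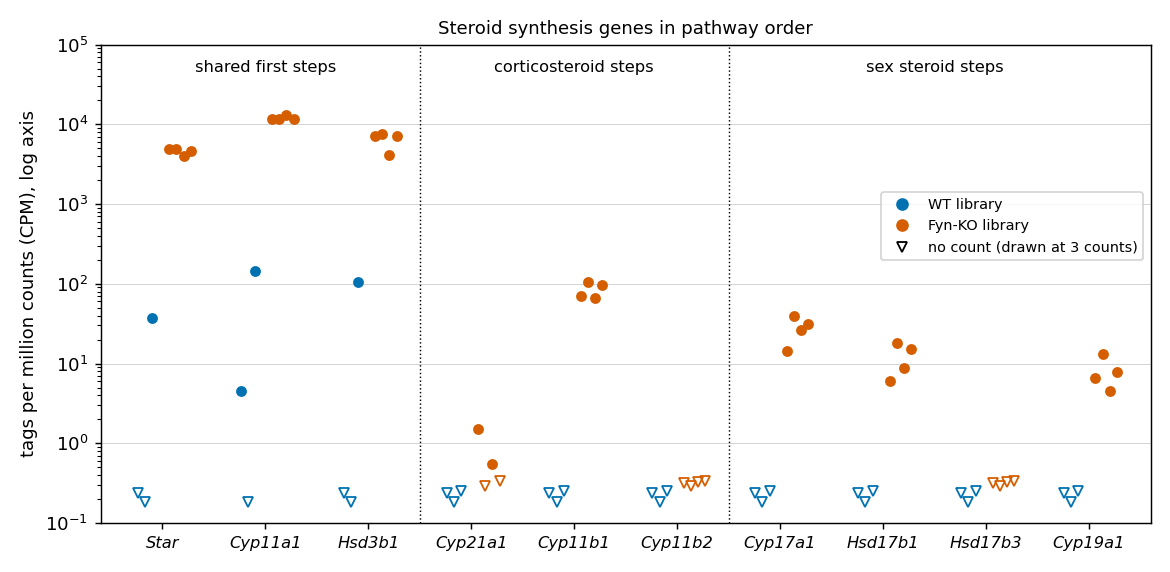
Genes of steroid synthesis in the order of their steps, in CPM on a log axis, with each library as a point and libraries without a count as open triangles at the level of 3 counts. In Fyn-KO the shared steps lie between 3962 and 13175 CPM, Cyp11b1 lies between 67.3 and 104 CPM, and Cyp21a1 and Cyp11b2 lie at or near 0, while Cyp17a1, Hsd17b1 and Cyp19a1 hold tags in each library.

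The list of early steroid synthesis genes (11 genes, all in the table) had 9 present in Fyn-KO, where 48.6% of all entries were. Of the 9 tested 1 rose, Tspo, an outer mitochondrial membrane protein of steroid-producing cells. It stood at 217 ± 21.5 CPM in Fyn-KO, against 1.34 ± 2.17 CPM in WT (log2 fold change 7.53 ± 1.71 (SE), edgeR adjusted p = 0.0148). With 0, 63 and 2 WT counts, Tspo passed the filter on low counts through Fyn-KO alone, so its call is a description. Across all 13122 tested genes 19.0% were called higher and 3.51% lower. The median log2 fold change was 5.13 in this list and 0.45 in all tested genes, and 8.01 and 2.49 with limma-voom. At an unadjusted p under 0.05, 6 of the list were higher and 0 lower. DESeq2 called 6 higher (Cyp11a1, Fdx1, Hsd3b1, Scarb1, Star and Tspo) and 0 lower, and limma-voom called 0 in either direction, with Tspo at an adjusted p of 0.222. Hsd3b6, the form of Hsd3b in the mouse glomerulosa and testis, was partly detected with 0.213, 2.02, 4.27 and 0 CPM in Fyn-KO. Hsd3b1 and Hsd3b6 are paralogs, and how far their 3' tags can be told apart was not tested. Cyp11a1 and Star did not pass with all libraries (adjusted p = 0.0529 and 0.0559). WT replicate 3 held all 446 WT counts of Star and 1714 of the 1771 WT counts of Cyp11a1. Without that library 6 genes of the list rose, Cyp11a1 and Star among them. Star then had no WT count and had to differ, and Cyp11a1 had 57, so their calls there are a description. Without WT replicate 1 or without WT replicate 2, 3 rose.

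Enzymes that lead to sex steroids were detected too. Those that edgeR called stood below Cyp11b1, while Hsd17b7, which it did not call, stood above Cyp11b1 in each Fyn-KO library. Of the 9 listed, 6 were present in Fyn-KO, where 48.6% of all entries were. Of the 6 tested 4 rose, beside 19.0% of all tested genes: Cyp17a1, Hsd17b1, Akr1c18 and Cyp19a1. Each of the 4 had no count in WT and passed the filter on low counts through Fyn-KO alone, so that it had to differ, and the count of 4 and the list's median are a description. Cyp17a1, which makes androgen precursors and which the adult mouse adrenal cortex lacks, stood at 14.4, 39.5, 26.7 and 31.0 CPM (27.9 ± 10.5, at least 110-fold higher). Cyp19a1, the aromatase, stood at 7.99 ± 3.67 CPM and Hsd17b1, the estradiol-forming enzyme, at 12.0 ± 5.55 CPM. Hsd17b3, the testosterone-forming enzyme of testis, had no count in any library. Hsd17b7 and Srd5a1 were present but not called, at 987 ± 265 and 65.9 ± 25.8 CPM in Fyn-KO (edgeR adjusted p = 0.103 and 0.239). In each Fyn-KO library Cyp11b1 was above Cyp17a1, Hsd17b1 and Cyp19a1, and Cyp21a1 was below all 3. At an unadjusted p under 0.05, 5 of the list were higher and 0 lower, DESeq2 called 6 higher and 0 lower, and limma-voom called 0. The list's median was 9.78, and 5.28 with the genes that lack a WT count set at their bound.

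Other genes of the adrenal cortex were split between present and absent as well. Of 20 listed genes, which include genes of its zones, its capsule and its regulators, 12 were present, 4 partly detected and 4 absent in Fyn-KO, and 0, 4 and 16 in WT. Of all entries, 48.6% were present and 32.7% absent in Fyn-KO, and 14.9% were present and 52.9% absent in WT. Of the 13 that passed the filter on low counts 10 rose and none fell in the edgeR test, beside 19.0% higher and 3.51% lower among all tested genes. Of the 13, 8 had no WT count, so that they passed the filter through Fyn-KO alone and had to differ. The count and the median are therefore a description, and no p is given for those 8. At an unadjusted p under 0.05 and by DESeq2, 10 were higher and 0 lower, and limma-voom called 1 higher (Wnt4) and 0 lower. The median was 9.1, and 5.76 with genes lacking a WT count at their bound.

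Regulators and inner-zone genes of that list ranged widely in level. Nr5a1 (steroidogenic factor 1), the nuclear receptor that switches on steroid enzyme genes in adrenal and gonad, stood at 116, 129, 129 and 108 CPM in Fyn-KO with no count in WT (at least 478-fold higher). Nr0b1 (Dax1), its repressor partner, stood at 3.56 ± 1.9 CPM, with no count in WT. Akr1b7, an aldo-keto reductase that ACTH induces in the fasciculata, stood at 815, 660, 832 and 670 CPM with no count in WT. Abcb1b, a drug transporter of the adrenal cortex, stood at 958 ± 213 CPM and 6.37 ± 11 CPM (log2 fold change 7.5 ± 2.21 (SE), edgeR adjusted p = 0.0429). Pik3c2g, a gene of the transient X-zone, stood at 14.5 ± 4.91 CPM and Tesc at 13.6 ± 12.8 CPM with no count in WT. Wnt4, a signal of the outer cortex, stood at 320 ± 47.5 CPM and, in WT, at 24.4 ± 41.9 CPM, and did not pass (adjusted p = 0.246). Dlk1, a capsule gene, had 165 counts, all in Fyn-KO replicate 2.

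Genes named for the glomerulosa ranged from high levels to 0. Kcnk3, a potassium channel that sets the membrane potential of these cells, stood at 888 ± 294 CPM in Fyn-KO and had 4 counts in WT. It too passed the filter on low counts through Fyn-KO alone, and no p is given for it. Kcnk9 and Kcnj5, potassium channels of the same cells, had no count in any library. Vsnl1, a calcium sensor, had 1 count in WT and none in Fyn-KO. Agtr1a, the angiotensin II receptor that drives aldosterone output, stood at 6.5, 0.673, 0 and 2.12 CPM, and Agtr1b had 6 counts in 1 library. Dab2, an endocytic adaptor found in these and many other cells, stood at 80.3 ± 8.83 CPM in Fyn-KO, against 55.5 ± 95.9 CPM in WT, where replicate 2 alone held 166 CPM (adjusted p = 0.857). Shh, a signal of the outer cortex, had no count, and its target Gli1 stood at 4.54 ± 1.05 CPM in Fyn-KO, against 17.4 ± 30.1 CPM in WT (adjusted p = 0.588).

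The call of Abcb1b was lost without any 1 of the 4 Fyn-KO libraries or WT replicate 3 (adjusted p 0.0525 to 0.0938) and with library sizes alone (0.0547).

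**Figure D3:**
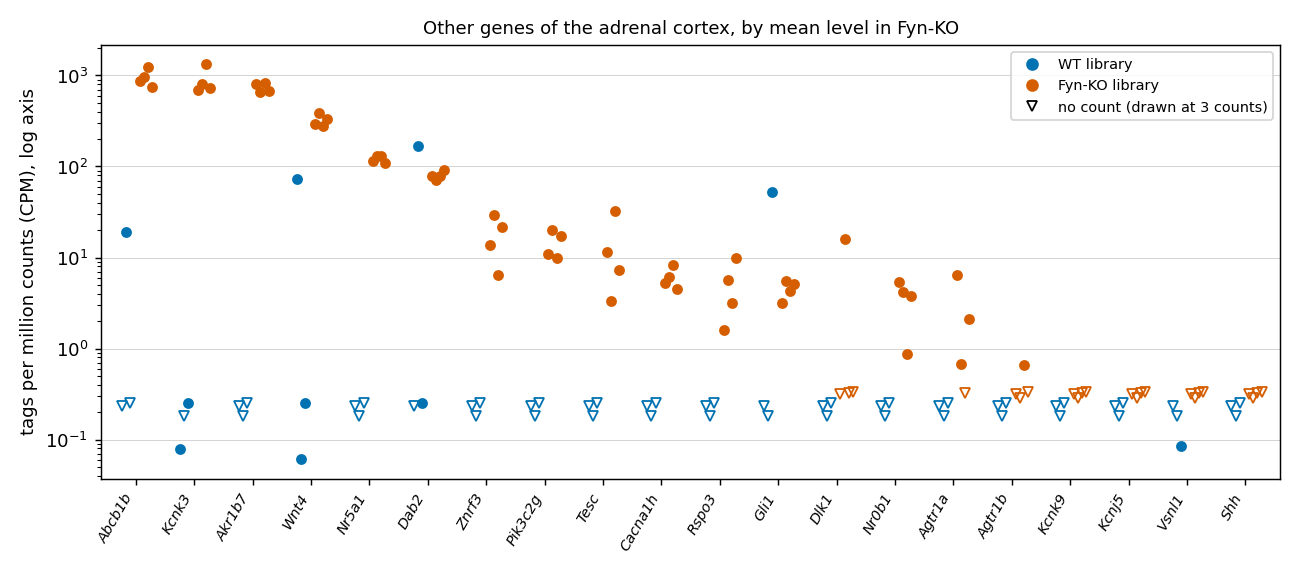
The 20 other adrenal cortex genes ordered by mean level in Fyn-KO, in CPM on a log axis, with each library as a point and libraries without a count as open triangles at the level of 3 counts. Abcb1b, Kcnk3 and Akr1b7 lie highest in Fyn-KO, and Kcnk9, Kcnj5, Vsnl1 and Shh have no Fyn-KO count.

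Sequence of a start region is shown for Akr1b7 alone, since the RefSeq promoter table (GRCm38.p6) used here holds none of the 5 members and 11 of the 20 other adrenal cortex genes, and Akr1b7 is the gene among those 11 whose window held the motif searched. The motif was AAGGTCA on either strand, the core that Nr5a1 is known to bind, and it does not read as itself on the other strand. The stretch lies at chr6:34412112-34412333 on the plus strand, 222 bases up to the base before the start that GENCODE gives at 34412334 (RefSeq gives 34412362), and capitals mark the match, which lies on the minus strand and so reads as its reverse complement.
Akr1b7: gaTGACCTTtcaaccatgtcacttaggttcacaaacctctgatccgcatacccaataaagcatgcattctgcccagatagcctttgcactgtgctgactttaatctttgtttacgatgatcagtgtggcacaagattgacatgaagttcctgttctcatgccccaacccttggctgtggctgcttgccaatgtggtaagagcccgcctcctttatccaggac
Between the match and the GENCODE start lie 213 bases. Of all 32851 promoters of 300 bases in the same RefSeq set, 4.72% hold the motif. A match is a description of letters and says nothing of binding in these cells.

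Downstream of the receptor, genes of cyclic AMP and protein kinase A signalling were examined. Of 24 listed genes 20 were present in Fyn-KO and 7 in WT, where 48.6% and 14.9% of all entries were. Of 23 tested 3 rose and none fell, beside 19.0% higher and 3.51% lower among all tested genes. The median log2 fold change was -0.05, but 0.15 with library sizes alone and 2.3 with limma-voom, where that of all tested genes was 2.49. At an unadjusted p under 0.05, 6 were higher and 1 lower, DESeq2 called 6 higher and 2 lower, and limma-voom called none. Gnas, the stimulatory G protein subunit that Mc2r uses, stood at 909 ± 41.9 CPM in Fyn-KO, against 1046 ± 381 CPM in WT (adjusted p = 0.603). Prkar2b, a regulatory subunit of protein kinase A, rose from 20.2 ± 26.6 to 1654 ± 316 CPM (log2 fold change 6.36 ± 1.58 (SE), edgeR adjusted p = 0.0207), a call lost without WT replicate 2 (0.0542). Crem, a transcription factor induced by cyclic AMP, stood at 19.4 ± 7.97 CPM in Fyn-KO with 1 count in WT. Adcy4, an adenylyl cyclase, stood at 8.9 ± 6.51 CPM in Fyn-KO with 2 counts in WT. Both passed the filter on low counts through Fyn-KO alone, so their calls are a description. The call of Adcy4 (edgeR adjusted p = 0.0352) was lost without Fyn-KO replicate 1 or 2 or WT replicate 1 (0.0523 to 0.0622). It was also lost without the filter on low counts (0.0549). Adcy2, of the same enzyme family, stood at 3.89 ± 2.83 CPM with no WT count. It entered the test through Fyn-KO alone, did not pass with all libraries and was called without Fyn-KO replicate 2, where it had no count. Without WT replicate 2, 7 of the list rose and 1 fell (Rapgef3, a cyclic AMP sensor, named after its values were seen).

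Genes that take up, convert or answer corticosteroids were examined as well. Of 12 listed, 9 were tested, 2 rose (H6pd and Dusp1) and none fell, near the 19.0% called higher among all tested genes, with 3 higher and 0 lower at an unadjusted p under 0.05, 3 higher and 0 lower in DESeq2 and 0 in limma-voom. Without WT replicate 2, 4 rose, and without Fyn-KO replicate 1 or 4, 1 did. The list's median was 1.88, but 6.94 without WT replicate 2, 4.63 with limma-voom and 1.11 without the filter on low counts, where that of all tested genes was 1.91, 2.49 and 0.898. H6pd, which feeds cofactor to Hsd11b1, stood at 37.3 ± 11.5 CPM in Fyn-KO with 1 count in WT. Hsd11b1, the enzyme that regenerates active corticosterone, had no count in Fyn-KO and 3 in WT. Dusp1, a phosphatase that glucocorticoids and stress induce, stood at 44.4 ± 16.2 CPM in Fyn-KO with 5 counts in WT. Its call was lost without Fyn-KO replicate 1, 2 or 4 (edgeR adjusted p 0.0547 to 0.0604). H6pd and Dusp1 passed the filter on low counts through Fyn-KO alone, so their calls are a description. Nr3c1, the glucocorticoid receptor, stood at 46.9 ± 9.15 CPM in Fyn-KO, against 15.3 ± 26 CPM in WT (adjusted p = 0.57), and Nr3c2, the mineralocorticoid receptor, had no count in any library. Fkbp5, a target of the glucocorticoid receptor, stood at 358 ± 92 and 124 ± 175 CPM (adjusted p = 0.675).

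Markers of other cell types were examined too, and some of their lists were higher in Fyn-KO while others were not. The part of these cells in the levels of Mrap and Cyp11b1 was not tested. Of all entries, 48.6% were present in Fyn-KO and 14.9% in WT. Ovarian granulosa markers summed to 959 to 1274 CPM in Fyn-KO and 0.0839 to 7.44 CPM in WT, with 8 of 10 present in Fyn-KO and none at 0 there. Inha, the inhibin alpha subunit, stood at 591 ± 110 CPM, Nr5a2 at 202 ± 28.9 CPM and Foxl2, a transcription factor of granulosa cells, at 165 ± 55 CPM. Luteal markers summed to 3421 to 4882 CPM in Fyn-KO and 0.168 to 116 CPM in WT, with 7 of 8 present in Fyn-KO and none at 0 there. Prlr, Hsd17b7 and Sfrp4 led that list at 1761 ± 205, 987 ± 265 and 809 ± 156 CPM. In each Fyn-KO library the summed granulosa and luteal levels were each above the sum of the 5 adrenal cortex genes.

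Of 7 testis Leydig markers 2 were present in Fyn-KO, where 48.6% of all entries were: Lhcgr at 131 ± 16.9 CPM and Cyp17a1. The 7 summed to 138 to 189 CPM in Fyn-KO and 0 in WT. Lhcgr is also in the luteal list, so the Leydig and luteal sums are not separate from each other. Insl3, the defining hormone of Leydig cells, had 12 counts, all in Fyn-KO replicate 1, and Hsd17b3 and Rxfp2 had none. Adrenal medulla markers summed to 95 to 134 CPM in Fyn-KO and 161 to 225 CPM in WT. Phox2a led the list at 111 ± 21.9 and 160 ± 65.5 CPM, and Dbh, Pnmt and Slc18a1, genes that define chromaffin cells, had no count in any library. Th, the first enzyme of catecholamine synthesis, had 25 counts, all in Fyn-KO replicate 2.

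Fat cells also express Mrap, and 5 of the 10 adipocyte markers (Adipoq, Cfd, Lep, Cidec and Adrb3) had no count in Fyn-KO, while 4 were present. Of all entries 32.7% were absent and 48.6% present there. The 10 adipocyte markers summed to 44.7 to 86.5 CPM in Fyn-KO and 38.5 to 402 CPM in WT, led by Lpl at 31.8 ± 7.58 and 186 ± 189 CPM. Plin1 and Pparg, at 11.3 ± 6.58 and 12.2 ± 3.14 CPM in Fyn-KO, had no count in WT. Blood markers were also detected, with the sum of 8 red blood cell and platelet genes at 1095 to 1159 CPM in Fyn-KO and 100 to 667 CPM in WT. Hba-a1, a hemoglobin gene, led at 726 ± 70 CPM in Fyn-KO.

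**Figure D4:**
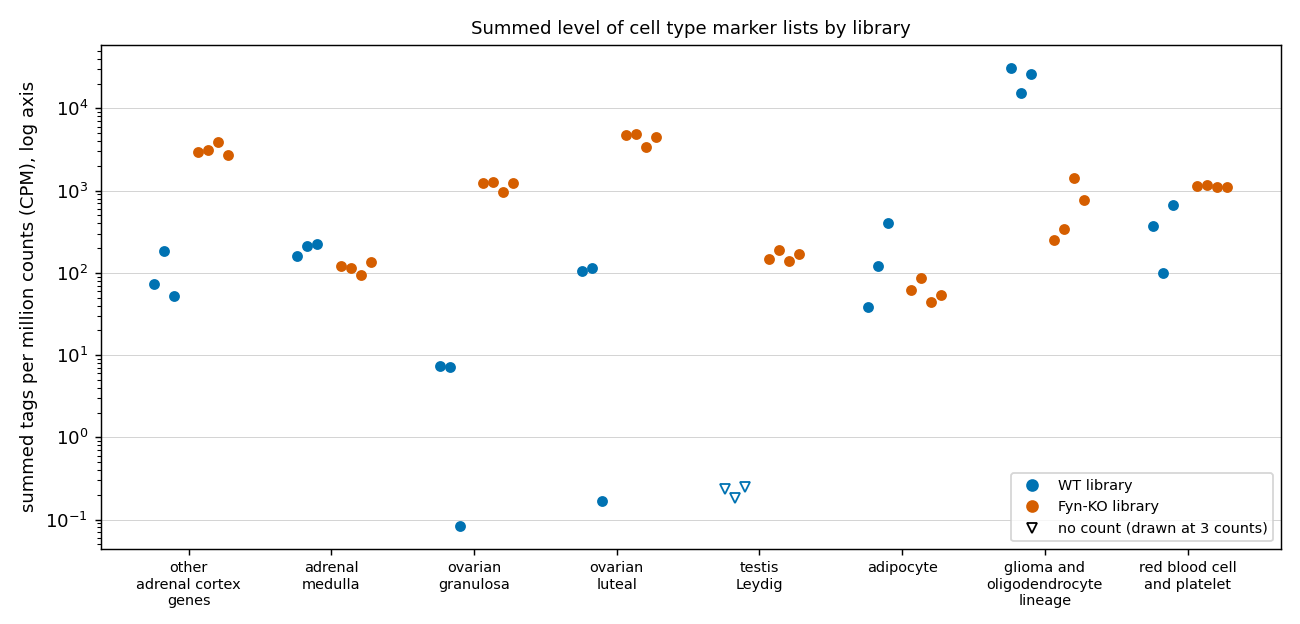
Summed level of each marker list in each library, in CPM on a log axis, with libraries in which the whole list has no count as open triangles at the level of 3 counts. The other adrenal cortex, granulosa, luteal, Leydig and red blood cell lists lie higher in each Fyn-KO library than in any WT library, and the adrenal medulla and glioma lists lie lower. The luteal and Leydig lists share Lhcgr. Over the whole table, 13535 to 14548 entries had a count in Fyn-KO libraries and 7723 to 9924 in WT libraries, and 48.6% and 14.9% of entries were present.

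Within Fyn-KO, replicate 3 held the lowest level of both Mrap and Cyp11b1. The same library had the highest share of Rn45s (16.6% of its counts) and the highest sum of glioma and oligodendrocyte markers (1408 CPM), and their part in the levels was not tested. Without that library the mean was 287 CPM for Mrap and 90.3 CPM for Cyp11b1. Both genes were present in each of the other 3 libraries.

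The genes nearest to Mrap and Cyp11b1 over the 7 libraries were found by the Euclidean distance of log2(CPM + 1). Nearest to Mrap were Hoxc6 (distance 0.37, 254 ± 17.4 CPM in Fyn-KO), a homeobox gene of trunk positions, Cst8 (0.43, 249 ± 10.4 CPM), a cystatin, and Ptgfr (0.51, 237 ± 29.4 CPM), the prostaglandin F receptor. Nearest to Cyp11b1 were Cited4 (0.3, 82.6 ± 12.4 CPM), a transcriptional co-activator, Foxo1 (0.31, 91.8 ± 15.7 CPM), a forkhead factor under insulin control, and Ppcs (0.39, 76.1 ± 9.02 CPM), an enzyme of coenzyme A synthesis. Each of these had 0 or 1 count in WT, so the distance rests on their level in Fyn-KO and on that absence.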

How the data were processed

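The authors deposited whole-number counts of 3' tags per gene for 7 libraries, in a table they call modified; the sources used here do not say what was modified, which annotation was used or whether strand was. Per the submitters' processing notes, Bowtie2, bedtools, DESeq2 1.32.0 and mm10 (GRCm38) were used. Columns were joined to samples by label, except the third WT column. It shares its name with the title of a different WT sample, so it entered as WT replicate 3, tied to the group only. Each of 46 repeated symbols was kept as its own gene.

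CPM use the column total. Genes passing filterByExpr (10 or more counts in enough libraries, 15 in all) were tested with edgeR 4.0.16 in R 4.3.3 (TMM factors, quasi-likelihood F test, two-sided, Benjamini-Hochberg adjusted p under 0.05, log2 fold change of Fyn-KO over WT, approximate SE from the F value). The code was checked on simulated data. P-values measure only the variation among these 7 libraries. A fold against WT libraries without a count uses the highest WT limit of 3 counts and is a lower bound for counting error only. Alternatives used limma 3.58.1 and DESeq2 1.42.0. Libraries of 1 group differed by more than sampling noise, and WT libraries did so far more. The chi-square per degree of freedom was 24.5 to 78.7 between Fyn-KO libraries and 800 to 1060 between WT libraries.

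Lists numbered 13, of which 6 were tested. Named genes are the 5 members, the 3 nearest genes of each one present, list genes, the cyclic AMP genes with the lowest p (Gnas and Rapgef3 were added after their values were seen), up to 3 leading and the defining genes of each marker list, and Fyn. Members and lists were chosen with earlier results of these data known.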

Additional observations from a re-analysis of the deposited data

Results flagged for a closer look

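Among 67 genes of the members and tested lists with a mean of 1 CPM or more in Fyn-KO, 11 had 1 of the 4 Fyn-KO libraries far from the other 3 (gap over range above Dixon's 95% critical value, which chance passes in about 1 in 20 groups). None of the 11 was Mrap, Cyp11b1 or another member. Fyn-KO replicate 3 stood apart in 6 of them, with 13175 CPM of Cyp11a1 above the others, and 4119 CPM of Hsd3b1, 592 CPM of Hsd17b7, 1182 CPM of Prkar2b, 220 CPM of Fkbp5 and 26.1 CPM of Tsc22d3 below them. Replicate 4 held 104 CPM of Srd5a1 and 34.6 CPM of Prkar2a, above the others. Replicate 2 held 41.7 CPM of Pde8b, above the others, and 15.9 CPM of Dlk1, which had no count elsewhere. Srd5a2 had a count in replicate 1 alone, at 4.79 CPM.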

How the results depend on the processing

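Depth limits an absence to the floor of 3 counts per library. The presence of Mrap and Cyp11b1 and the non-presence of the other 3 held at 50 or more counts in each library. Without Rn45s in the total, Mrap stood at 316 CPM, a shift above its SD, and the other member means moved by less than theirs; TMM scaling moved none that far. RLE factors, no filter and a minimum count of 50 left every list count and both totals within 1.5 times.

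Library sizes alone gave 3 early steroid genes. DESeq2 gave 6 early steroid, 6 cyclic AMP and 1 melanocortin genes, and 918 lower genes in all. Limma-voom gave 24 higher genes in all, 1 other adrenal cortex gene, and 0 early steroid, sex steroid, cyclic AMP and corticosteroid response genes. Among genes counted in both groups (2 or more WT and 3 or more Fyn-KO libraries with 10 counts each, a choice made after seeing the data), 52 were higher and 146 lower, with 0 in these 4 lists and in the other adrenal cortex list, of which no gene could then be tested. With a replicate block, 188 were higher and 135 lower, with 8 early steroid, 1 sex steroid, 1 cyclic AMP, 0 corticosteroid response and 5 other adrenal cortex genes; the block moved the median log2 fold change of the early steroid, cyclic AMP and corticosteroid response lists to 9.41, 3.66 and 5.7, and that of all tested genes to 3.45. The numbers do not pair the libraries (correlations of deviations -0.027 to -0.01). The cause of these shifts was not tested.

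Leaving out 1 library gave 2190 to 4585 higher genes and 247 to 839 lower genes (2493 and 461 with all), 1 to 6 early steroid, 4 to 5 sex steroid, 0 to 1 melanocortin, 2 to 7 cyclic AMP, 1 to 4 corticosteroid response and 8 to 11 other adrenal cortex genes. The higher genes passed 1.5 times without WT replicate 2 alone (4585); the lower genes did so without WT replicate 1, 2 or 3 (729, 839 and 716) and Fyn-KO replicate 1, 2 or 4 (251, 247 and 262). Member means stayed within their SD.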
